A study of Homo sapiens with 6 samples.

Results

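DNA replication licensing and S-phase genes were followed in MDA-MB-231 cells, a human breast cancer cell line that lacks the usual hormone receptors, after exposure to selamectin. The members were chosen by name: 43 genes that load, start and run the replication fork, supply nucleotides, or switch these genes on. Each gene was represented by the transcript cluster (the probes assigned to 1 locus) that carried its symbol alone, and by the brightest such cluster where there were more. All 43 were measured, among 18417 genes in all. Affymetrix whole-transcript arrays gave 1 log2 expression value per cluster and array, so a difference of 1 is a doubling.

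The tested cultures received 1 µM selamectin, an avermectin used against parasites in animals, for 24 h (3 arrays). The other 3 arrays are called untreated in their titles, while the treatment description speaks of vehicle, so what those cultures received is not settled. Both groups were the same unmodified line grown below confluence. The title of the series places avermectins as inhibitors of the SIN3 corepressor, which recruits histone deacetylases to genes.

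Before S phase, the origin recognition complex, CDC6 and CDT1 load the MCM2 to MCM7 helicase onto DNA, the step called licensing. The DBF4 and CDC7 kinase and cyclin E with its partner kinase then turn the loaded helicase into an active one together with CDC45 and the GINS complex, and polymerases follow with the PCNA clamp. Many of these genes are switched on in late G1 by E2F factors once the retinoblastoma protein and its relatives let go of them. In a mixed culture, fewer cells in S phase and less RNA per cell cannot be told apart.

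Many of the promoters share short runs of letters, called motifs here. The genes were picked by name for their roles in S phase, and the motifs were chosen after the promoter sequences were seen. The shares below are therefore a description and carry no test. RefSeq promoters (GRCh38.p14, from 250 bases before to 50 after a gene's start) were found for 38 of the 43 genes, and CCNE2, E2F8, GINS4, MCM4 and MCM5 were without an entry. An E2F-type match was any of TTTCCCGC, TTTCGCGC, TTTGCCGC and TTTGGCGC on either strand, and these may overlap each other. At least 1 match lay in 21 of the 38 genes (55.3%), against 784 of 14239 measured genes with a promoter in the table (5.51%). A gene was counted if any of its promoters held a match. Counted by promoter, 22 of the 49 promoters of these genes held one (44.9%), against 3.32% of all 35116 promoters. A CCAAT box, the site known to bind NF-Y, lay in 57.9% of the 38 genes and in 42.2% of measured genes, on either strand. The CHR-type letters TTTGAA and TTCGAA, known from genes of G2 and mitosis, lay in 7.89% of the 38 genes and in 17.4% of measured genes, on either strand. Median GC content was 66.3% in the 38 genes, 62.7% in measured genes and 64.3% in measured genes with an E2F-type match. A match is only a string of letters and no binding was measured.

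The 10 promoter stretches that follow show where the E2F-type letters and CCAAT boxes lie in some of the genes. Not every stretch holds both, and their positions differ. The first 6 belong to genes with an unadjusted p under 0.05, and the last 4 were picked, after the sequences were seen, from genes with a match and a larger p. Each runs 5′ to 3′ on the gene's own strand over the 100 bases before the start. CDC6 and GINS3 run on to the end of a match at the start. UHRF1 and MCM7 each had 3 promoters on record and PCNA had 2. For these genes the promoter with the most E2F-type matches in the stretch was printed, so the others may hold fewer. Runs of 8 capitals are E2F-type matches, runs of 5 capitals are CCAAT boxes, and the longer run in MCM6 is 2 E2F-type matches that overlap.
CDC6 (chr17:40287779-40287893, plus strand): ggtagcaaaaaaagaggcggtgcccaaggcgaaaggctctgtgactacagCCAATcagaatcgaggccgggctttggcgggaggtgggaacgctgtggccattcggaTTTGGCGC
UHRF1 (chr19:4909401-4909500, plus strand): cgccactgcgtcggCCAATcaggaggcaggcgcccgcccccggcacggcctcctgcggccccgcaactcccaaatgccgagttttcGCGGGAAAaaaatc
GINS2 (chr16:85688955-85689054, minus strand): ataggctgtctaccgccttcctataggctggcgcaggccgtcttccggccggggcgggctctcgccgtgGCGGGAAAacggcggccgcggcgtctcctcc
GINS3 (chr16:58392371-58392473, plus strand): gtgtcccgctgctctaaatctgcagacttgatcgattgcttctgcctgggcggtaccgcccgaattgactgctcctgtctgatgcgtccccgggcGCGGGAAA
ORC1 (chr1:52404424-52404523, minus strand): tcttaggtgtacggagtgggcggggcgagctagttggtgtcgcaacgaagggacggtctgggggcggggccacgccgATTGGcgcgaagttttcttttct
ORC6 (chr16:46689559-46689658, plus strand): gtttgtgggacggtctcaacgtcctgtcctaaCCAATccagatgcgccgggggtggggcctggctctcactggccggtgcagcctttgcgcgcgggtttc
PCNA (chr20:5126623-5126722, minus strand): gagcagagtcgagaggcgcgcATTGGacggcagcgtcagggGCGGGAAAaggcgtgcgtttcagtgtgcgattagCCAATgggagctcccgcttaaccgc
TYMS (chr18:657553-657652, plus strand): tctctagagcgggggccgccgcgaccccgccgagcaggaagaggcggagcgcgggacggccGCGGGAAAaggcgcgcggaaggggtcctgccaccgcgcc
MCM6 (chr2:135876444-135876543, minus strand): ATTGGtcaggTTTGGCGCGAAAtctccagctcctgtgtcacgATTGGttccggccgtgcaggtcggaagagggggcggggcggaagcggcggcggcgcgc
MCM7 (chr7:100101398-100101497, minus strand): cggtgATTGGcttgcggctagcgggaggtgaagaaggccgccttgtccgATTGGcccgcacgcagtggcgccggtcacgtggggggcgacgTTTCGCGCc

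In CDC6 the match begins at base 8 after the start, and in MCM6 the overlapping pair begins 90 bases before it. ORC1 and ORC6 showed a CCAAT box and no E2F-type match in the stretch shown. GINS2, GINS3 and TYMS showed an E2F-type match and no CCAAT box there.

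The replication genes as a group stayed near their untreated values after 24 h of selamectin. Of the 43, 1 rose past an adjusted p of 0.05 in limma (CDC6) and 0 fell, where 2.41% of all genes rose and 2.28% fell, 4.69% in all. At an unadjusted p under 0.05 in limma, 6 were higher and 1 was lower, together 16.3% of the group against 19.9% of all genes (11.7% higher and 8.21% lower). Groups did not overlap for 8 of the 43 (18.6%), against 25.3% of all genes. The median log2 change was 0.01 for the group and 0.04 for all genes, with 24 members above 0 and 19 below.

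These changes were bounded as well as small. With all 6 arrays the largest estimate was that of CCNE2 at 1.35-fold, and the lowest that of ORC6 at 1.21-fold lower. The 95% interval of the log2 change lay inside 1.5-fold in either direction for 42 of the 43 genes, CCNE2 being the exception, and for 91.6% of all genes. The median standard error was 0.10 in the group, so a change much smaller than 1.5-fold could have gone without a call.

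**Figure D1:**
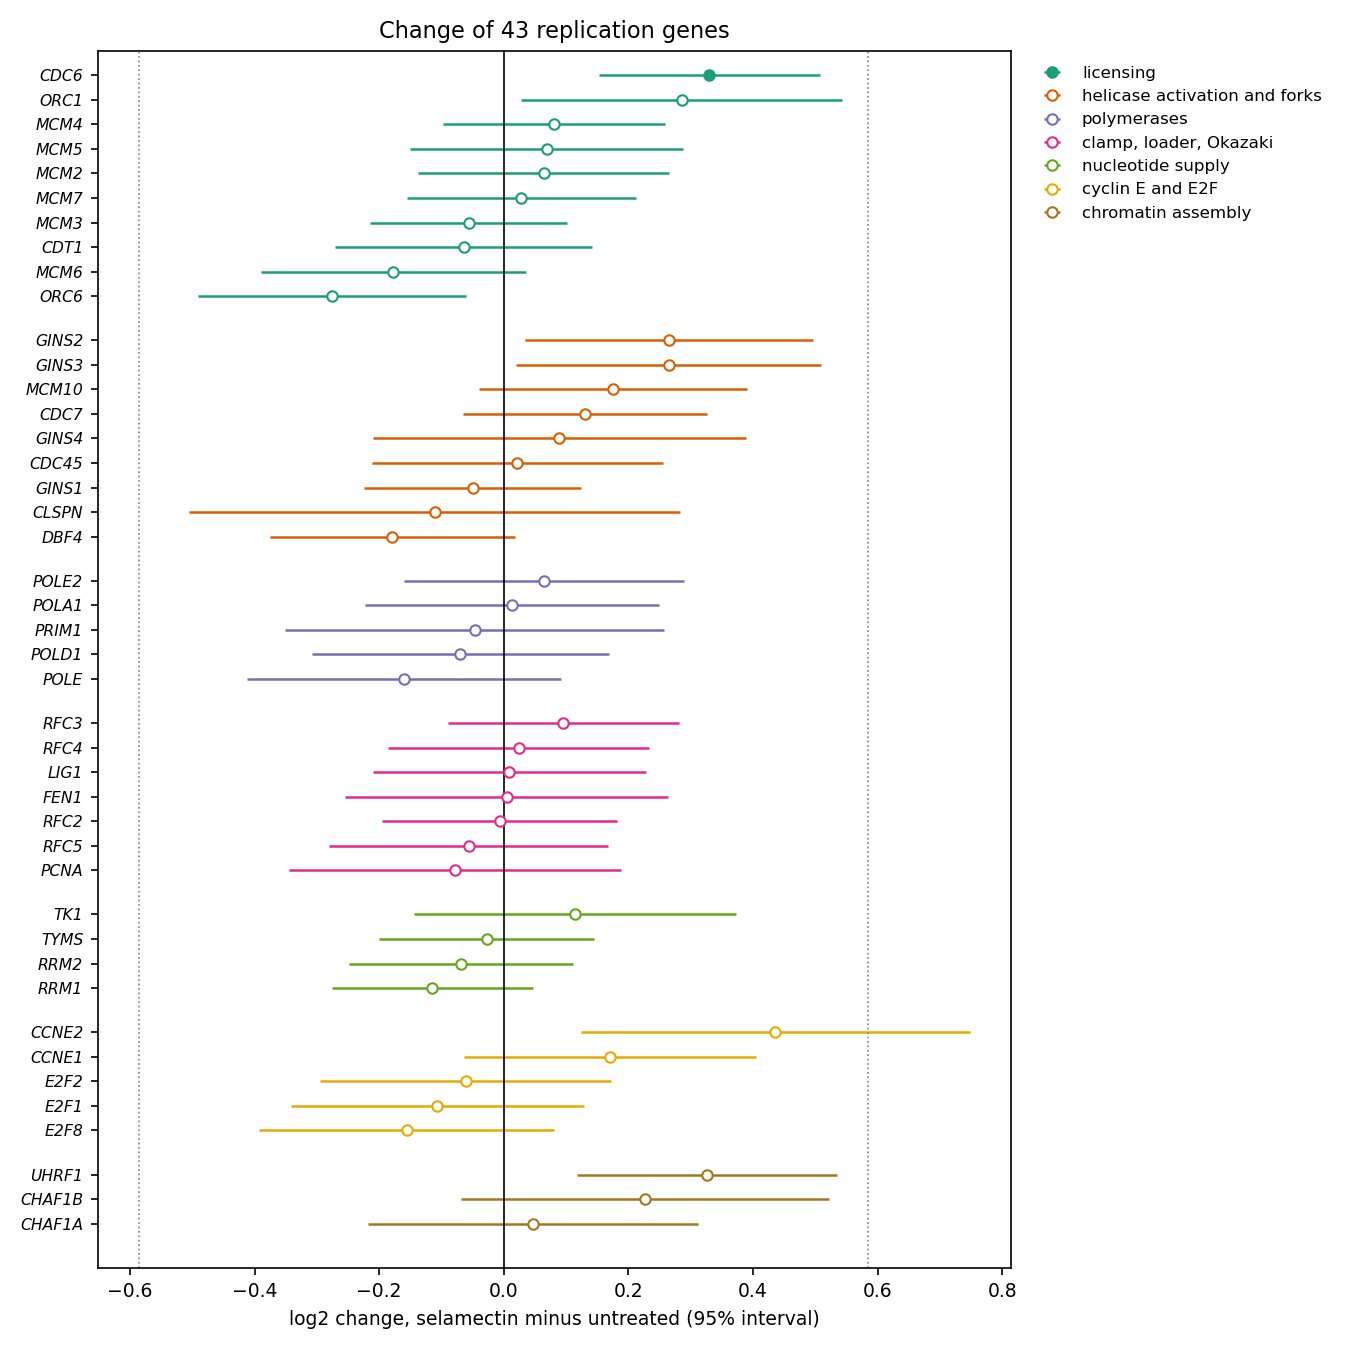
Log2 change of each of the 43 genes (selamectin minus untreated, horizontal axis) with its 95% interval from limma, grouped and coloured by role. The filled point is CDC6, with an adjusted p of 0.043; open points did not pass, and dotted lines mark 1.5-fold, which 42 of the 43 intervals do not reach.

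Among the licensing factors, CDC6, the ATPase that recruits the helicase to the origin recognition complex, had log2 values of 11.71, 11.73 and 11.78 on the selamectin arrays and 11.32, 11.40 and 11.51 on the untreated arrays. The groups did not overlap, and the lowest selamectin value was above the highest untreated one. Means were 11.74 ± 0.04 with selamectin and 11.41 ± 0.10 untreated (SD, n = 3 each), a 1.26-fold rise (log2 change 0.33 ± 0.08 SE, 95% interval 0.15 to 0.51, limma adjusted p = 0.043). The rise kept its direction under all 15 alternative settings, but the adjusted p lay between 0.025 and 0.159 and was under 0.05 in 6 of them. Leaving out any single array ended the call: the limma adjusted p was 0.083, 0.149 and 0.052 without selamectin arrays 1, 2 and 3, and 0.159, 0.079 and 0.091 without untreated arrays 1, 2 and 3.

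The 2 subunits of the origin recognition complex among the 43 had estimates of opposite sign, and neither passed. ORC1, the ATPase subunit whose level is known to vary over the cell cycle in human cells, had log2 values of 10.16, 9.97 and 9.72 with selamectin and 9.63, 9.60 and 9.76 untreated. Selamectin array 3 lay among the untreated values, and the log2 change was 0.29 (limma adjusted p = 0.20). Without that array it was 0.40 and passed (limma adjusted p = 0.040), while without selamectin array 1 it was 0.18 (0.473), and these were the lowest and highest adjusted p over the alternative settings. ORC6, the smallest subunit, had 9.28, 9.20 and 9.41 with selamectin and 9.60, 9.47 and 9.65 untreated. These did not overlap, and the log2 change was -0.28 (interval -0.49 to -0.06, limma adjusted p = 0.14). Whether ORC1 and ORC6 differ in response was not tested.

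The 6 subunits of the MCM2 to MCM7 ring, the core of the replicative helicase, held close to their untreated values. None passed in limma, none had an unadjusted p under 0.05, and their log2 changes ran from -0.18 (MCM6) to 0.08 (MCM4), with a median of 0.05. MCM7 had log2 values of 12.51, 12.60 and 12.35 with selamectin and 12.39, 12.44 and 12.55 untreated, and the groups interleaved (log2 change 0.03, below 0 in 4 of the 15 alternative settings). MCM6 stood at 11.18, 11.01 and 11.01 with selamectin and at 11.35, 11.08 and 11.30 untreated (interval of the change -0.39 to 0.04, limma adjusted p = 0.34). CDT1, which brings the ring to the origin, had a log2 change of -0.06 (interval -0.27 to 0.14).

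**Figure D2:**
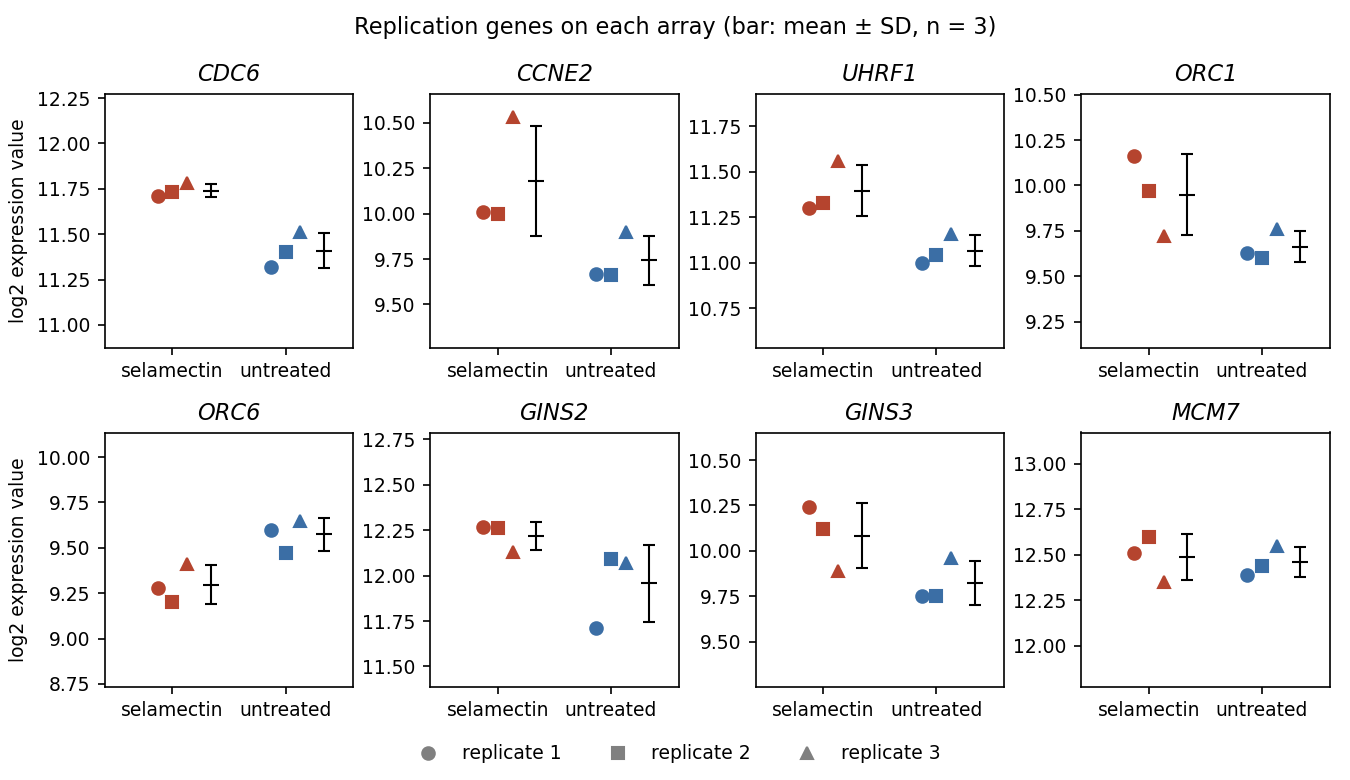
Log2 expression value on each array for the 7 genes with an unadjusted p under 0.05 and for MCM7; selamectin arrays in red on the left, untreated in blue on the right, symbols by replicate number, black bars mean ± SD (n = 3). Each panel spans the same height, and CDC6, CCNE2, UHRF1, ORC6 and GINS2 show groups that do not overlap.

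Genes that activate the helicase and hold the fork together gave 0 calls of 9 in limma, where 4.69% of all genes were called. At an unadjusted p under 0.05 in limma, 2 were higher and 0 were lower. That is 22.2%, near the 19.9% of all genes. The 2 higher genes were subunits of GINS, the 4-part complex that joins MCM and CDC45 in the active helicase. GINS2 had log2 values of 12.27, 12.26 and 12.13 with selamectin and 11.71, 12.09 and 12.07 untreated. The groups were apart by a narrow margin, with untreated array 1 well below the other untreated arrays, and the log2 change was 0.27 (limma adjusted p = 0.19). Without that array it was 0.14 (limma adjusted p = 0.50). GINS3 had 10.24, 10.12 and 9.89 with selamectin and 9.75, 9.75 and 9.96 untreated, which overlapped (log2 change 0.26, limma adjusted p = 0.22).

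The other 2 subunits of the complex stood elsewhere. GINS1 had a log2 change of -0.05 with all 3 selamectin arrays below the untreated ones, in a group spread of only 0.01 with selamectin and 0.02 untreated (SD, n = 3 each), and GINS4 had 0.09. CDC7, the catalytic subunit of the origin-firing kinase, had a log2 change of 0.13, and its activator DBF4 had -0.18 (limma adjusted p = 0.45 for CDC7 and 0.30 for DBF4). MCM10, which takes part in helicase activation, stood at 0.18 and CDC45 at 0.02. CLSPN, which links the fork to the checkpoint kinase, had the widest spread among the untreated arrays, with 9.06, 9.30 and 9.25 with selamectin and 9.76, 8.89 and 9.28 untreated. Its interval ran from -0.51 to 0.28, and a second, dimmer CLSPN cluster changed by 0.04.

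Polymerase genes gave 0 calls of 5 in limma and 0 at an unadjusted p under 0.05. POLE, the catalytic subunit of the leading-strand polymerase, had log2 values of 9.82, 9.74 and 10.07 with selamectin and 10.08, 9.87 and 10.16 untreated. Those ranges overlapped, and the log2 change was -0.16 (interval -0.41 to 0.09). Its partner subunit POLE2 had 10.73, 10.60 and 10.62 with selamectin and 10.76, 10.42 and 10.58 untreated, a change of 0.06. The primase and polymerase alpha genes PRIM1 and POLA1, which lay down primers, stood at -0.05 and 0.01, and POLD1 of the lagging-strand polymerase at -0.07.

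The sliding clamp, its loader and the enzymes that join Okazaki fragments were the flattest set: 7 genes with log2 changes between -0.08 and 0.10. PCNA, the clamp itself, had log2 values of 11.71, 11.63 and 11.39 with selamectin and 11.78, 11.39 and 11.79 untreated, so arrays within a group differed more than the group means (11.58 ± 0.17 and 11.66 ± 0.23, SD, n = 3 each). RFC3, a subunit of the clamp loader, had 11.57, 11.43 and 11.39 with selamectin and 11.40, 11.28 and 11.42 untreated. RFC4, of the same loader, had 12.29, 12.36 and 12.32 with selamectin and 12.08, 12.45 and 12.37 untreated. FEN1, the flap nuclease, and LIG1, the ligase, had log2 changes of 0.005 and 0.009. None of the 7 passed in limma, and the smallest unadjusted p was 0.28.

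Genes of nucleotide supply likewise gave 0 calls of 4 in limma and 0 at an unadjusted p under 0.05. RRM1, the large subunit of ribonucleotide reductase, had log2 values of 12.80, 12.71 and 12.76 with selamectin and 12.94, 12.75 and 12.92 untreated. Selamectin arrays 1 and 3 lay just above untreated array 2, and the log2 change was -0.11 (interval -0.28 to 0.05, limma adjusted p = 0.42). RRM2, the small subunit, stood at -0.07, the thymidylate synthase gene TYMS at -0.03 and the thymidine kinase gene TK1 at 0.11. The TK1 estimate came with a low untreated array 1 (10.72, against 11.20 and 11.11 on the other untreated arrays).

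Among regulators of S-phase entry, CCNE2, one of 2 cyclin E genes, had log2 values of 10.01, 10.00 and 10.53 with selamectin and 9.67, 9.66 and 9.90 untreated. No values overlapped, selamectin array 3 stood well above the other selamectin arrays, and the log2 change was 0.44 ± 0.14 SE (interval 0.12 to 0.75, limma adjusted p = 0.11). Without that array it was 0.26, below ORC1 at 0.40 and GINS3 at 0.36 in the same setting, and with array weights it was 0.24. CCNE2 passed in none of the 15 alternative settings (limma adjusted p from 0.053 to 0.316). CCNE1, the other cyclin E gene, stood at 0.17 (interval -0.06 to 0.41).

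The E2F genes of the list lay slightly below 0 and did not pass. E2F1, an activator of S-phase genes, had log2 values of 10.33, 10.45 and 10.43 with selamectin and 10.30, 10.68 and 10.55 untreated, which overlapped (log2 change -0.11, interval -0.34 to 0.13). E2F2, another activator, stood at -0.06 and E2F8, an E2F that represses, at -0.16. All 3 intervals included 0.

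Of the chromatin factors that work at the fork, UHRF1, which brings the maintenance DNA methyltransferase to newly made DNA, had the second-smallest p of the 43. Its log2 values were 11.30, 11.33 and 11.56 with selamectin and 11.00, 11.04 and 11.16 untreated. All selamectin arrays were above all untreated arrays, by 0.33 ± 0.09 SE (1.25-fold, interval 0.12 to 0.53), and the limma adjusted p was 0.077. Over the 15 alternatives that p lay between 0.061 and 0.241. A second, dimmer UHRF1 cluster changed by 0.18 (unadjusted p = 0.15 in a fit of all clusters). CHAF1B and CHAF1A, subunits of the histone chaperone CAF-1, stood at 0.23 and 0.05, and selamectin array 3 was below the untreated mean for both.

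Members with and without an E2F-type match had like values. The median log2 change was 0.009 for the 21 members with a match (11 above 0, 1 called) and 0.005 for the 17 without (9 above 0, 0 called in limma). Over all measured genes the medians were 0.04 for 784 genes with a match and 0.05 for 13455 without. These are descriptions of the letters in the promoters, with no test.

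Within each group, the array medians over the 43 genes spread more widely than the median change between the groups, 0.01 on the log2 scale. Relative to each gene's untreated mean, the median of the 43 genes was 0.06, 0.05 and -0.04 on selamectin arrays 1, 2 and 3, and 0.01, -0.09 and 0.09 on untreated arrays 1, 2 and 3. Selamectin array 3 and untreated array 2 were the low arrays. The 16 genes lowest on both within their group (37.2% of the members, against 17.1% of all genes) included PCNA, FEN1, LIG1, RFC3, RFC5, PRIM1, CDC45 and TYMS. Another 12, among them CDC6, CCNE2, UHRF1, MCM2, MCM4 and MCM5, were highest on selamectin array 3 within the selamectin group, a share of 27.9% that is near the 25.4% of all genes. These groups of genes were read off the values and carry no test.

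**Figure D3:**
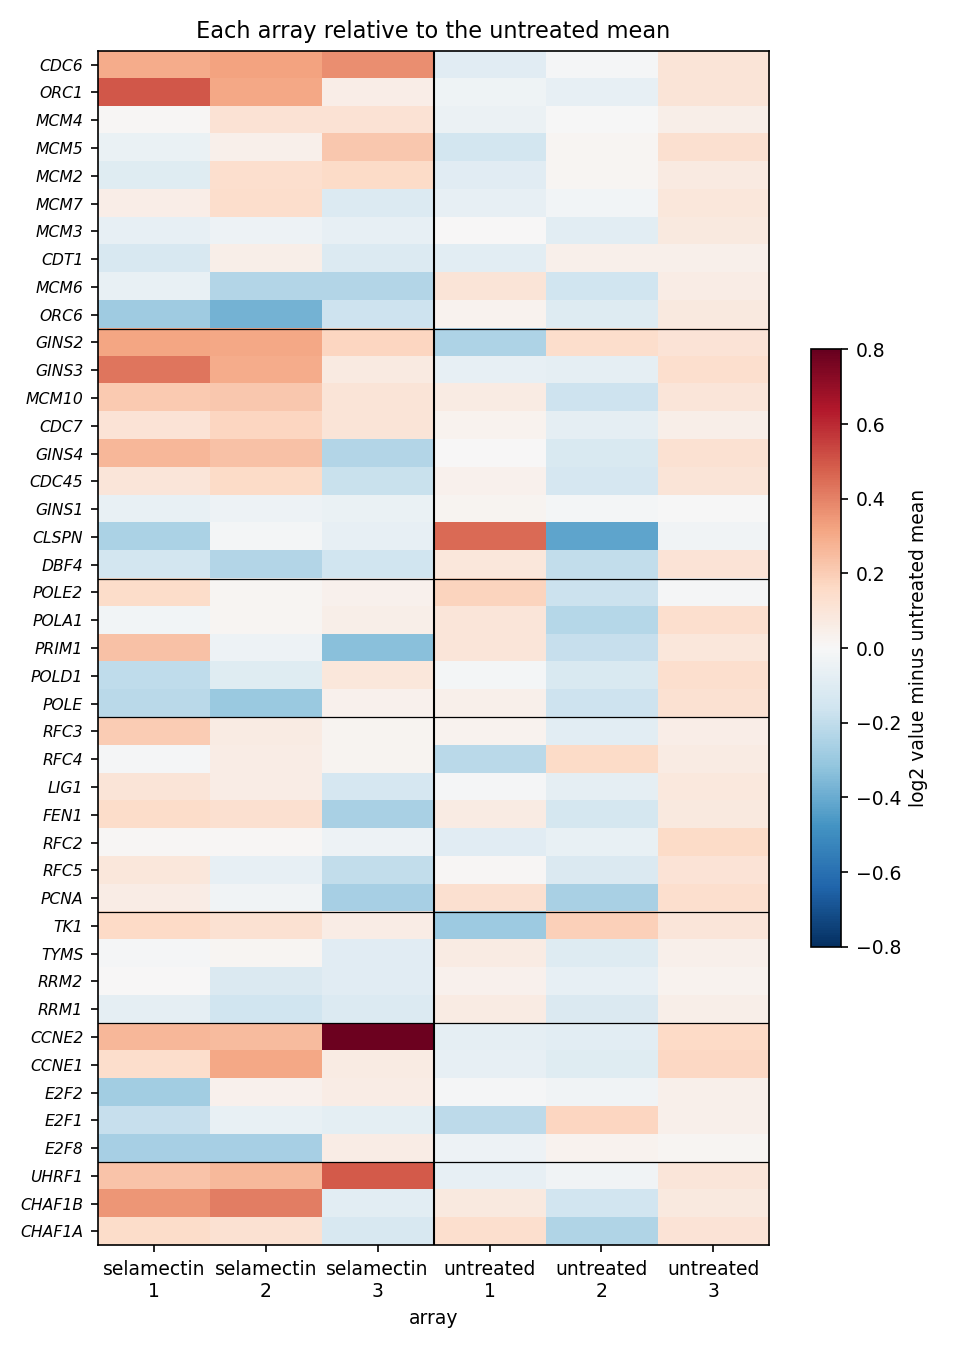
Log2 value of each gene on each array minus that gene's untreated mean, selamectin arrays left of the line and untreated arrays right, with genes in the same role groups as in the plot of changes. CDC6 is above 0 on all 3 selamectin arrays, while PCNA, FEN1 and PRIM1 are lowest on selamectin array 3 and untreated array 2.

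Among 46 other replication genes, 1 rose and 0 fell in limma (2.17%, against 4.69% of all genes), with a median log2 change of 0.03. Without adjustment, 11 had a p under 0.05 (9 higher, 2 lower), which is 23.9%, against 19.9% of all genes. The difference from the 43 was not tested. The call was RNASEH2C, a subunit of the ribonuclease that removes RNA from DNA, with 11.52, 11.77 and 11.63 with selamectin and 10.92, 11.28 and 11.23 untreated, a 1.41-fold rise (limma adjusted p = 0.029). It lost the call without untreated array 1 (limma adjusted p = 0.10), untreated array 3 (0.076) or selamectin array 2 (0.13). POLE3, a histone-fold subunit of polymerase epsilon, stood at 0.29, DCK, the deoxycytidine kinase, at 0.35, ORC5 at 0.29 and RNASEH2B at 0.26, with limma adjusted p between 0.065 and 0.15.

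Among 24 regulators of the E2F and retinoblastoma switch, 1 fell and 0 rose in limma (4.17%, against 4.69% of all genes). At an unadjusted p under 0.05 in limma, 5 of the 24 were higher and 1 was lower. Over all genes, 11.7% were higher and 8.21% lower at that threshold, 19.9% together. Whether the list differs from all genes was not tested. RBL2, which encodes p130, the pocket protein that with E2F4 represses cell cycle genes in resting cells, had log2 values of 9.74, 9.61 and 9.51 with selamectin and 10.19, 10.19 and 10.15 untreated. Every selamectin value was below every untreated one, and RBL2 was 1.47-fold lower (log2 change -0.55 ± 0.09 SE, limma adjusted p = 0.0097). It passed in 14 of 15 alternatives and not without untreated array 1 (0.052). RB1, the retinoblastoma gene itself, stood at 0.33, E2F4 at 0.37, CDK4 at 0.39 and CDKN1A, which encodes the inhibitor p21, at 0.40. None of those 4 passed (limma adjusted p between 0.063 and 0.080), and all had groups that did not overlap. Groups did not overlap for 29.2% of the 24 genes and for 25.3% of all genes. CDKN1A passed without selamectin array 3 (log2 change 0.52, limma adjusted p = 0.012) and CDK4 without untreated array 2 (0.48, 0.049).

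Of 31 genes of G2 and mitosis, 1 fell and 0 rose in limma, where 4.69% of all genes were called. Without adjustment, 9 had a p under 0.05 (4 higher, 5 lower), which is 29.0%, against 19.9% of all genes. The log2 change was below 0 for 23 of the 31 and for 6820 of all 18417 genes, and its median was -0.09, against 0.01 for the 43 replication genes and 0.04 for all genes. The fall was that of TOP2A, topoisomerase II alpha, with 11.99, 11.84 and 12.11 with selamectin and 12.40, 12.25 and 12.32 untreated (limma adjusted p = 0.048). It was lost without any one array other than selamectin array 3 (0.064 to 0.194). PTTG1, the securin gene, stood at -0.36, BUB1, a spindle checkpoint kinase, at -0.26 and UBE2C at -0.26, while FOXM1, the factor that drives G2 genes, stood at 0.34. The difference between the 2 lists was not tested.

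**Figure D4:**
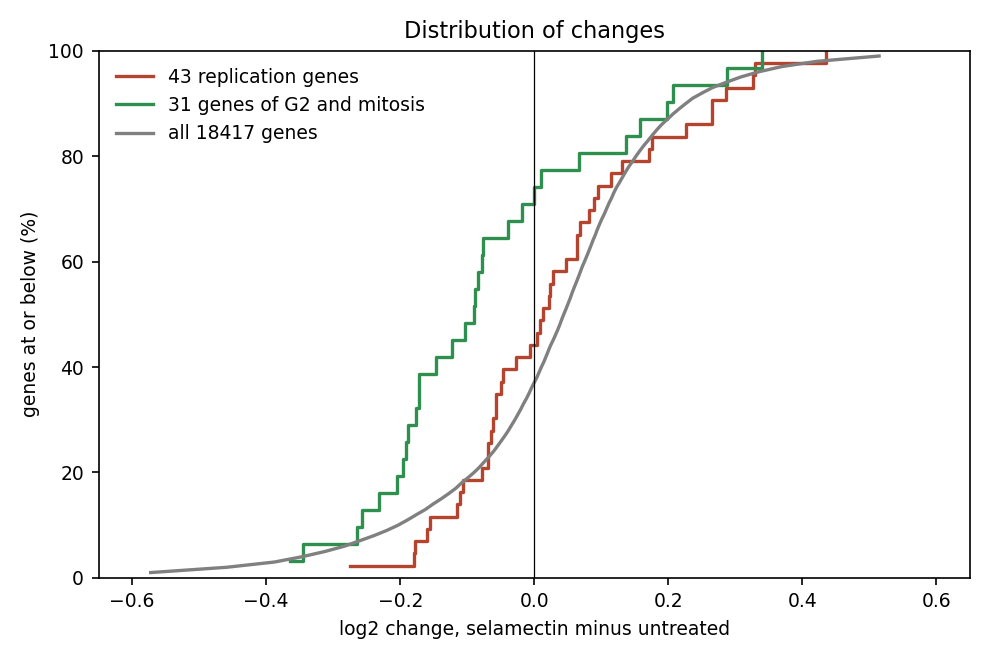
Share of genes at or below each log2 change (selamectin minus untreated): 43 replication genes in red, 31 genes of G2 and mitosis in green, all 18417 genes in grey (drawn from the 1st to the 99th percentile). The red line crosses 50% at 0.01, close to the grey one at 0.04, and the green line crosses it at -0.09.

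To check the label, 7 markers of the line were read. VIM, the mesenchymal filament gene, read between 12.63 and 12.94 over the 6 arrays and CDH1, the epithelial cadherin gene, between 5.97 and 6.34. CD44 read 10.44 to 10.99, ERBB2 8.94 to 9.28, ESR1 6.72 to 7.16, EPCAM 5.85 to 6.34 and PGR 5.58 to 5.79. Without detection calls, and because clusters differ in probe response, these values do not show presence or absence. CD44 passed in limma (1.34-fold higher, adjusted p = 0.020). VIM, CDH1 and EPCAM did not pass but had an unadjusted p under 0.05 in limma. Of 13 leukocyte, endothelial and fibroblast markers, 1 passed in limma (PDGFRB, 1.27-fold higher) and 3 others had an unadjusted p under 0.05 (CDH5, VWF and DCN). Over all genes, 4.69% passed in limma and 19.9% had an unadjusted p under 0.05. The mean log2 value of the 13 was 6.73 to 6.78 on the selamectin arrays and 6.72 to 6.78 on the untreated arrays, and single markers differed widely, from 4.77 to 4.92 for PTPRC to 9.79 to 10.26 for CD68. CDH5, the endothelial cadherin gene, read 9.04, 8.53 and 9.23 with selamectin and 9.48, 9.71 and 9.37 untreated, and COL1A1, a collagen gene, read 8.86 to 9.04 with selamectin and 8.98 to 9.09 untreated. Their part in the results was not tested.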

How the data were processed

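Total RNA from 6 cultures was labelled and hybridised to Affymetrix whole-transcript arrays. RMA, the Transcriptome Analysis Console and Affymetrix Expression Console are listed in the submitters' processing notes, without versions. The deposited values are taken as RMA log2 values, although the log base is not stated. RMA as commonly run normalizes arrays together, which removes a shift shared by all genes and compresses changes of dim ones. The arrays' genome build: not given in the sources used here.

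Clusters were named through the platform annotation: 19460 of 33297 had 1 symbol, and the brightest cluster stood for each of 18417 genes. The test was limma (version 3.58.1, R version 4.3.3; lmFit and eBayes, trend on intensity) of selamectin minus untreated, two-sided, with no filter and no replicate block, adjusted by Benjamini-Hochberg over all 18417 genes, threshold 0.05. The script was tested on simulated data in which 200 of 18417 genes were changed. It made 200 calls, of which 18 were false. It recovered 82% of the log2 changes of 0.5 and 100% of those of 1, in either direction. The number of arrays limits the precision. Scan dates were not used here, so no batch was tested.

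The members and lists were chosen with earlier results of these data known, and the motifs and the promoters printed were chosen after the sequences were seen. Values per array are given for members with an unadjusted p under 0.05 and for the member with the smallest p and the one with the highest mean in each of 7 role sets; those of MCM6, PCNA, CLSPN and TK1 were added after their values were seen. From the other lists, calls and up to 4 further genes by p are named. Alternatives were a second quantile normalization, median centring, a filter on the dimmest 25% of genes (which removes DBF4), eBayes without trend or robust, array weights, averaged clusters, all clusters, a replicate block, and leaving out each array.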

Additional observations from a re-analysis of the deposited data

How the results depend on the processing

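Counts of calls in limma moved with the setting. CDC6, RNASEH2C, RBL2 and TOP2A kept their direction in all 15 alternatives, and the direction of other called genes was followed only for those named by the rule. The 43 replication genes had 1 higher call (CDC6) in the main setting and 0 with a second quantile normalization, with all clusters in the fit or with a replicate block. Array weights gave 3 lower calls among them (DBF4, ORC6 and POLE) beside CDC6; untreated array 3 then had a weight of 5.11 and the others 0.447 to 1.22. Calls over all genes, 444 higher and 420 lower, became 1822 and 1464 with array weights and 104 and 145 with all clusters. Of the other replication genes, 1 was called, against 2 without the intensity trend, 4 with array weights and 0 with all clusters. Of the E2F and retinoblastoma regulators, 1 was called, against 5 with array weights. Of the G2 and mitosis genes, 1 was called, against 3 with a second quantile normalization, 0 with median centring, 2 without dim genes, 0 without the trend, 9 with array weights, 0 with all clusters and 0 with a replicate block.

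Leaving out 1 array at a time gave 0 to 1 higher and 0 to 0 lower calls among the 43 genes (1 being ORC1, without selamectin array 3), 76 to 685 higher and 100 to 464 lower over all genes, 0 to 1 among other replication genes, 0 to 2 among the E2F and retinoblastoma regulators and 0 to 1 among G2 and mitosis genes. The median log2 change of the 43 then lay between -0.03 and 0.06. Same-numbered arrays had correlations of -0.01, 0.24 and -0.14 between their deviations from the group means, so the replicate numbers were not taken as pairs, and the block (CDC6 limma adjusted p = 0.062) is given here only. Over 29 named genes, 8 results changed sign, all of genes past the threshold in neither setting. On the log2 scale MCM7 (main value 0.03) became -0.013 with a second quantile normalization and -0.0066 with array weights, and ran from -0.027 to 0.0976 as single arrays were left out. RFC4 (0.02) became -0.0298 with a second quantile normalization and -0.0197 with array weights, and ran from -0.085 to 0.099. POLE2 (0.06) ran from -0.0204 to 0.1518. The causes were not tested. With no detection calls, signal over background is unknown.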

Other observations

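The untreated arrays were ordered alike over many of the 43 replication genes. Untreated array 3 was above the untreated mean for 40 of the 43 genes, was the highest untreated array for 28 of them (65.1%, against 32.5% of all genes) and the lowest for 0. Untreated array 2 was the lowest for 30 (69.8%, against 35.9% of all genes) and the highest for 5. Among the selamectin arrays, array 3 was the lowest for 20 of the 43 (46.5%), close to the 48.1% of all genes. Genes on the same array share its RNA, so they are not independent of each other, and these counts carry no test.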
